A study of Mus musculus with 12 samples.

Results

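The genes described here are Prdm8, Cabp7, Iqgap2, Crym, Itpka, Cdh9 and Enc1, 7 of 19938 genes measured with arrays in mouse hippocampus and olfactory bulb. They were selected on these same arrays for a large excess of signal in hippocampus over olfactory bulb in wild-type and in knockout animals, so their difference between the tissues, and the change of that difference between the genotypes, are descriptions and carry no test. Ranked by the smaller of the excesses in the 2 genotypes, Cabp7 stood 1st of all genes, Prdm8 3rd, Iqgap2 4th, Crym 6th, Itpka 8th, Enc1 10th and Cdh9 16th. The 7 are therefore among the strongest hippocampal genes but are not the whole top of that list, since 9 genes outside the selection ranked above Cdh9, led by Neurod6, Prox1 and Npy2r. Cdh9, the member just inside, had a smaller excess of 2.78 on the log2 scale, and Doc2b, the next gene below it, 2.70. What is tested below is whether the level of each gene differed between knockout and wild type within a tissue, a contrast the genes were not ranked on.

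The animals were adult C57BL/6 mice kept in a conventional facility, 3 wild type and 3 lacking RasGRF2, which activates the GTPases Ras and Rac by exchanging their bound GDP for GTP. Hippocampus and olfactory bulb were taken from each of the 6 animals, which gave 4 groups of 3 arrays, with no treatment in any group. The labels used here name neither the form of the knockout allele nor the sex of the animals, nor whether the genotypes were littermates. Levels are the authors' deposited log2 intensities, computed by RMA (robust multi-array averaging), and wild-type animals carry the numbers 1 to 3 and knockout animals 4 to 6.

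Hippocampal tissue holds the dentate gyrus, with its granule neurons, and the CA fields, with their pyramidal neurons, whereas most neurons of the olfactory bulb are inhibitory granule and periglomerular cells. Calcium that enters an excitatory neuron is read by EF-hand sensor proteins, shaped by inositol phosphate signalling, and passed to the actin cytoskeleton of dendritic spines. Of the selected genes, Cabp7 and Itpka belong to calcium and inositol phosphate signalling, and Iqgap2 and Enc1 encode actin-associated proteins. Prdm8, a transcriptional regulator, Crym, a thyroid hormone binding protein, and Cdh9, an adhesion molecule, have other roles.

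Most markers of bulb and hippocampal neurons went with the tissue labels. All 14 measured markers of olfactory bulb neurons were lower in hippocampus in both genotypes. Of 12 markers of CA pyramidal neurons, 11 were higher and 1 lower in each genotype, and of 12 of dentate granule neurons, 9 and 3. Markers of neocortex and subiculum were mixed: of 10, 2 were higher and 4 lower in wild type, and 1 and 4 in knockout. Markers of olfactory sensory neurons were mixed: of 7, 3 were higher and 4 lower in hippocampus in wild type, and 2 and 3 in knockout. The markers were chosen with earlier results of these data known, so they are no independent check of the labels. Rasgrf2 itself ran from 9.14 to 9.32 in wild-type hippocampus and from 8.49 to 8.76 in knockout, a difference of -0.58 (SE 0.08, limma adjusted p = 0.00197). In the bulb it ran from 9.47 to 9.52 and from 9.33 to 9.43, a difference of -0.14 (adjusted p = 0.532). The sources used here do not say whether the probe set lies in the deleted part of the gene. Array medians lay between 6.82 and 6.89 in hippocampus and between 6.93 and 6.96 in olfactory bulb, so the tissues were not on an identical scale. No detection call was used, and in a bulk tissue fewer cells of a type and less RNA per cell cannot be told apart.

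Sequence near the start of transcription was at hand for 5 of the 7 genes, as windows from 250 bases before to 50 after the start (RefSeq, GRCm38.p6), and 4 are printed because they fall into contrasting pairs. Capitals mark the E-box CANNTG, the core word bound by neuronal basic helix-loop-helix factors such as Neurod6, and the GC box GGGCGG, the word bound by Sp-family factors, on either strand. Cabp7 (chr11:4747130-4747429, minus strand) and Iqgap2 (chr13:95891873-95892172, minus strand) start in GC-rich sequence.
Cabp7: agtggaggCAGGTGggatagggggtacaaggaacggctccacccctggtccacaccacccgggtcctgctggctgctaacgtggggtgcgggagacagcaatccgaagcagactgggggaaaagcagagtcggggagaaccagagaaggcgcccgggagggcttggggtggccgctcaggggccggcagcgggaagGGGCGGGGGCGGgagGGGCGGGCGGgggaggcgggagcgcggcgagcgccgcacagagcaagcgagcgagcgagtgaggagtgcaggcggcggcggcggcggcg
Iqgap2: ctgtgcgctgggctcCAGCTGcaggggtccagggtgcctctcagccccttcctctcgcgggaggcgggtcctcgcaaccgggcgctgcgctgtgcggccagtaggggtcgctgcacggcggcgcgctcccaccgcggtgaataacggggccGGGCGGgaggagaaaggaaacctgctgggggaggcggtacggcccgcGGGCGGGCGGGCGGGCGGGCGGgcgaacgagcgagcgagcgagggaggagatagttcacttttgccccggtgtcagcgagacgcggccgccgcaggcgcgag
Prdm8 (chr5:98180619-98180918, plus strand) and Cdh9 (chr15:16728665-16728964, plus strand) start in sequence with less GC.
Prdm8: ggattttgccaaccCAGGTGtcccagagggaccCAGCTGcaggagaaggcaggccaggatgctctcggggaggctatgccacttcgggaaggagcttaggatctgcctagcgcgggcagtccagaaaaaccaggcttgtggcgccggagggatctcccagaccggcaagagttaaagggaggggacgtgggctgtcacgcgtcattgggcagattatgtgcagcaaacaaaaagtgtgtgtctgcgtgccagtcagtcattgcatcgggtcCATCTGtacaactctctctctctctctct
Cdh9: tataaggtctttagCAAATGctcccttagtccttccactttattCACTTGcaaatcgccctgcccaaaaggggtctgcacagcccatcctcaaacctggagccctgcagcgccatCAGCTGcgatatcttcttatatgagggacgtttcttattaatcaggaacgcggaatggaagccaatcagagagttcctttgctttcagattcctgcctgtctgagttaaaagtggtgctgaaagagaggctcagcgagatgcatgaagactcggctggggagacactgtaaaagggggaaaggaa

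The GC content was 73.0% for Cabp7, 74.3% for Iqgap2 and 73.7% for Itpka (chr2:119742087-119742386, plus strand), against 57.7% for Prdm8, 48.7% for Cdh9 and a median of 52.7% over all 32851 windows of the table. The ratio of observed to expected CpG was 1.02 for Iqgap2, 0.850 for Cabp7 and 0.818 for Itpka, and 0.487 for Prdm8 and 0.451 for Cdh9, against a median of 0.384. GC boxes, counted with overlap on both strands, split the genes the same way: Iqgap2 held 6, Cabp7 4 and Itpka 4, while Prdm8 and Cdh9 held 0. At least 1 GC box was present in 35.7% of all windows.

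E-boxes ran the other way in these windows. Prdm8 held 3 and Cdh9 held 3, at the capitals of the windows above, while Cabp7 and Iqgap2 held 1 each and Itpka 0. The word is short, and 72.3% of all windows held at least 1. The E-box CAGCTG was present in 3 of the 5 windows (Prdm8, Iqgap2 and Cdh9) and in 16.3% of all windows. A match in letters is a description and is no evidence of binding.

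**Figure D1:**
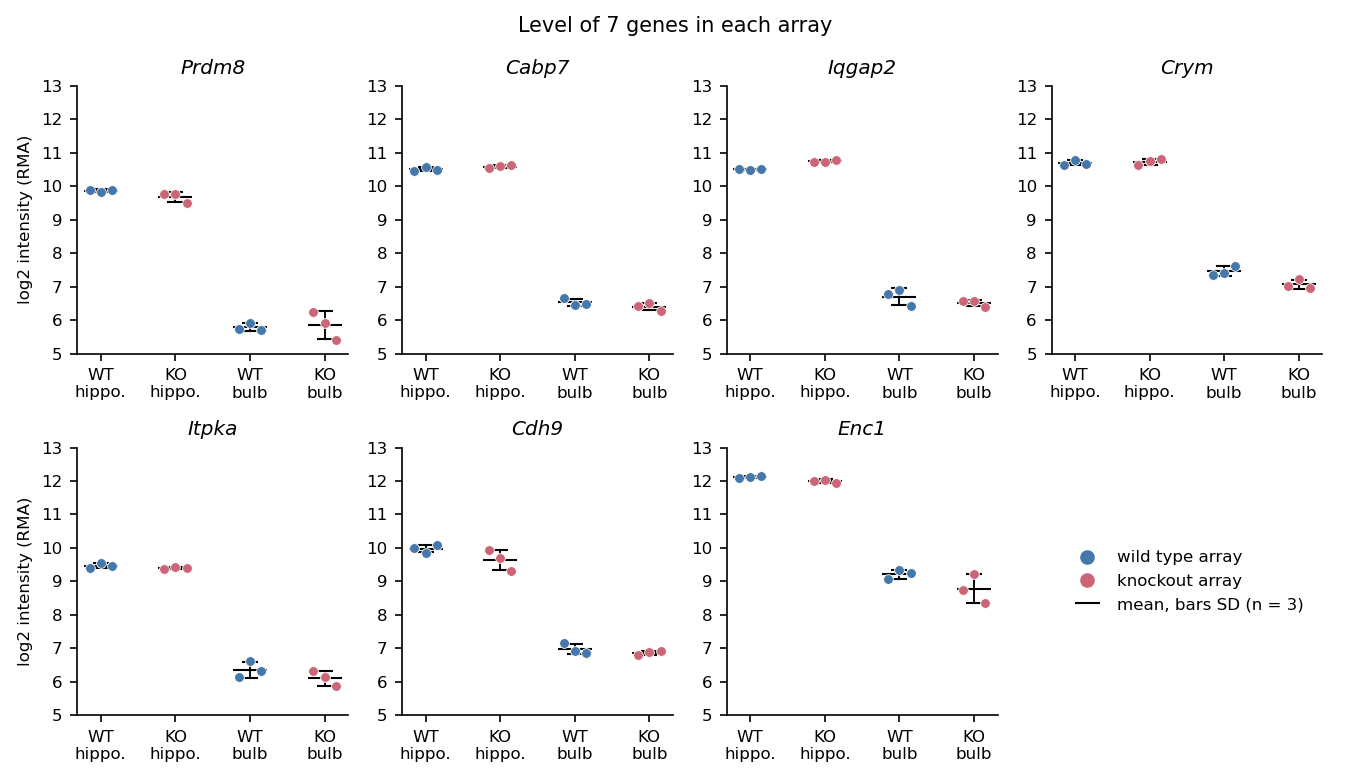
Level of each selected gene (log2 RMA intensity, vertical axis) in the 12 arrays, by group, with wild-type arrays in blue, knockout arrays in red, and the mean and SD of 3 arrays in black. Every gene stands higher in all hippocampal arrays than in all bulb arrays, which is what it was selected for; the genotypes lie close together, and the widest spreads are those of Prdm8 and Enc1 in knockout bulb.

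Prdm8 encodes a zinc finger protein of the PRDM family that represses transcription. In wild-type hippocampus its level was 9.88, 9.82 and 9.90, and in knockout hippocampus 9.77, 9.78 and 9.51. The knockout arrays all lay below the wild-type arrays, by a mean of -0.18 (SE 0.15, 95% interval -0.50 to 0.15), which did not pass the test (adjusted p = 0.739). This SE pools both tissues, and the SDs in wild type and knockout were 0.04 and 0.15 in hippocampus against 0.12 and 0.42 in bulb. Over the 16 other settings tried, which include a fit of the hippocampal arrays alone, the adjusted p in hippocampus was 0.58 or more. In the bulb the level was 5.74, 5.92 and 5.71 in wild type and 6.24, 5.93 and 5.40 in knockout, so that the genotypes overlapped and the knockout arrays held both the highest and the lowest value. The mean difference there was 0.06 (SE 0.15, adjusted p = 0.900), and leaving out knockout bulb array 4 turned it to -0.13. The excess of hippocampus over bulb came to 4.08 in wild type, or 16.9-fold, and 3.83 in knockout, or 14.3-fold.

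Cabp7 encodes an EF-hand calcium binding protein held on Golgi membranes. Its hippocampal levels were 10.46, 10.58 and 10.50 in wild type and 10.53, 10.59 and 10.64 in knockout, which overlap. The knockout difference was 0.08 (SE 0.08, 95% interval -0.09 to 0.24, adjusted p = 0.775). Bulb levels were 6.65, 6.47 and 6.47 in wild type and 6.42, 6.51 and 6.28 in knockout, again overlapping, with a difference of -0.12 (SE 0.08, adjusted p = 0.570). Its excess was 3.99 in wild type (15.8-fold) and 4.19 in knockout (18.2-fold).

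Itpka encodes the kinase that turns inositol trisphosphate into tetrakisphosphate and also bundles actin filaments in dendritic spines. It read 9.41, 9.55 and 9.46 in wild-type hippocampus and 9.38, 9.42 and 9.39 in knockout, where the highest knockout array just exceeded the lowest wild-type array. The difference of -0.07 (SE 0.12, adjusted p = 0.864) did not pass. In wild-type bulb it read 6.13, 6.60 and 6.31 and in knockout bulb 6.32, 6.13 and 5.87, overlapping, with a difference of -0.25 (SE 0.12, adjusted p = 0.448). Its excess was 3.12 in wild type (8.70-fold) and 3.29 in knockout (9.81-fold).

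Iqgap2 encodes a scaffold that binds calmodulin, actin and the GTPases Rac1 and Cdc42. Wild-type hippocampus gave 10.52, 10.49 and 10.51 and knockout hippocampus 10.73, 10.73 and 10.78. All knockout arrays lay above all wild-type arrays, and both groups were tight, with an SD of 0.01 in wild type and 0.03 in knockout. The difference of 0.24 (SE 0.10, 95% interval 0.03 to 0.45) did not pass the test over all genes (adjusted p = 0.525). Its SE pools both tissues, and the SD in bulb was 0.24 in wild type and 0.09 in knockout. Over the 16 other settings tried, which include a fit of the hippocampal arrays alone, the adjusted p in hippocampus was 0.13 or more. The bulb gave 6.77, 6.91 and 6.44 in wild type and 6.57, 6.56 and 6.41 in knockout, where the groups overlap. There the difference had the opposite sign, -0.19 (SE 0.10, 95% interval -0.40 to 0.01, adjusted p = 0.479). The excess was 3.80 in wild type (13.9-fold) and 4.24 in knockout (18.9-fold), which ranked it 4th and 1st of all genes in those genotypes.

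Enc1 encodes an actin-associated protein of the BTB-Kelch family. Its hippocampal levels were 12.07, 12.12 and 12.15 in wild type and 12.001, 12.04 and 11.94 in knockout, with every knockout array below every wild-type array. This difference of -0.12 did not pass the test (SE 0.15, adjusted p = 0.815). The SE pools both tissues, and the SDs in wild type and knockout were 0.04 and 0.05 in hippocampus against 0.14 and 0.44 in bulb. Over the 16 other settings tried, which include a fit of the hippocampal arrays alone, its adjusted p was 0.672 or more. In the bulb, wild type gave 9.06, 9.33 and 9.24 and knockout 8.74, 9.22 and 8.35, so that knockout array 5 lay within the wild-type range and arrays 4 and 6 below it. The bulb difference was -0.43 (SE 0.15, 95% interval -0.76 to -0.11, adjusted p = 0.317). It came to -0.66 (adjusted p = 0.0219) without knockout array 5 and to -0.23 (adjusted p = 0.717) without array 6, so single arrays set both its size and its call. The excess was 2.90 in wild type (7.49-fold) and 3.22 in knockout (9.31-fold).

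Crym encodes mu-crystallin, a cytosolic protein that binds the thyroid hormone T3. Hippocampal levels of 10.64, 10.79 and 10.67 in wild type and 10.63, 10.75 and 10.81 in knockout overlapped. Their difference of 0.03 (SE 0.09, 95% interval -0.17 to 0.22, adjusted p = 0.943) changed sign when arrays were centred on their medians. In the bulb, wild type gave 7.34, 7.41 and 7.63 and knockout 7.03, 7.23 and 6.95, and here all knockout arrays lay below all wild-type arrays. The bulb difference of -0.39 (SE 0.09, 95% interval -0.59 to -0.19) did not pass the threshold (adjusted p = 0.104). With trended and robust moderation of the variances it passed (adjusted p = 0.0321), and over the 16 other settings tried its adjusted p ran from 0.0321 to 0.395. The excess was 3.24 in wild type (9.46-fold) and 3.66 in knockout (12.6-fold).

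Cdh9 encodes a type II cadherin, one of the cell adhesion molecules that sort synaptic partners, and is known at the mossy fibre synapse between dentate granule cells and CA3 neurons. Its hippocampal levels were 10.01, 9.85 and 10.07 in wild type and 9.92, 9.68 and 9.31 in knockout, overlapping. The difference was -0.34 (SE 0.12, 95% interval -0.60 to -0.07, adjusted p = 0.489), and -0.17 without knockout array 6, which was the lowest. In the bulb its levels were 7.14, 6.93 and 6.86 in wild type and 6.80, 6.89 and 6.90 in knockout, which overlap and differ by -0.11 (SE 0.12, adjusted p = 0.762). The excess was 3.00 in wild type (8.01-fold) and 2.78 in knockout (6.85-fold).

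For each of the 7 genes, then, both hippocampal groups lay above both bulb groups, and neighbouring groups in that order, the genotypes of a tissue, did not pass the test. By limma, 0 of the 7 were called in hippocampus, where 0.256% of all genes were called, and 0 of 7 in bulb, where 0.411% were. At an unadjusted p under 0.05 there were 2 of 7 in hippocampus (Iqgap2 and Cdh9) and 2 of 7 in bulb (Crym and Enc1), against 8.91% and 11.3% of all genes. Arrays of the genotypes did not overlap for 3 of 7 genes in hippocampus (Iqgap2 higher, Prdm8 and Enc1 lower in knockout), where 13.1% of all genes did not overlap. In bulb this held for 1 of 7 (Crym, lower), against 17.1%. The median knockout difference of the 7 was -0.07 in hippocampus and -0.19 in bulb, where the medians over all genes were 0.03 and -0.02.

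**Figure D2:**
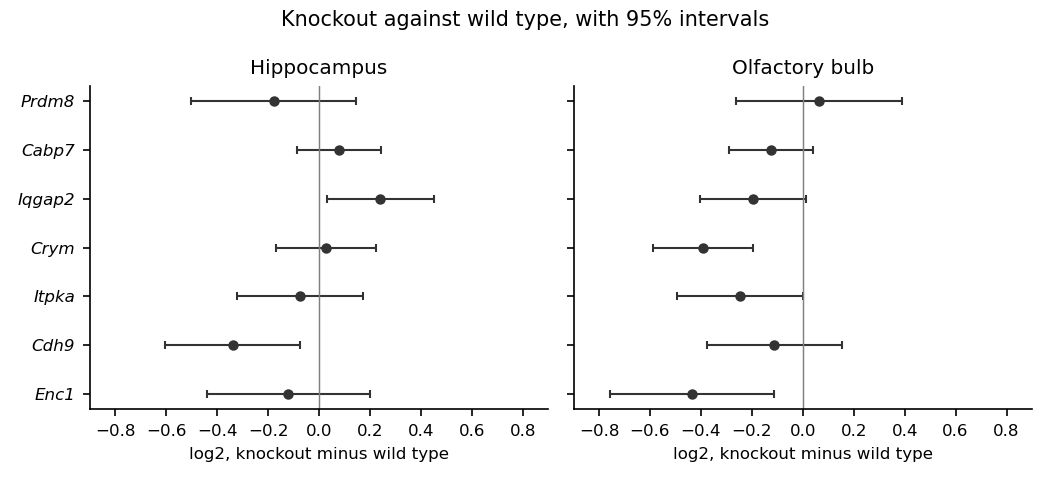
Knockout minus wild type of each selected gene (log2, horizontal axis) in hippocampus and in olfactory bulb, as points with 95% intervals from limma, not corrected for the number of genes. Intervals leave out zero for Iqgap2 and Cdh9 in hippocampus and for Crym and Enc1 in bulb; no adjusted p is under 0.05.

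The change of the excess between the genotypes, which equals the hippocampal minus the bulb effect of the knockout, comes from the values the genes were selected on and is given without a test. The excess of Iqgap2 was larger in knockout by 0.44 (SE 0.14) and that of Crym by 0.42 (SE 0.13). It was larger by 0.31 for Enc1, 0.20 for Cabp7 and 0.17 for Itpka, and the change was -0.23 for Cdh9 and -0.24 for Prdm8.

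Each animal gave both tissues, so the excess can also be described animal by animal. The excess of Iqgap2 was 3.61, 3.73 and 4.07 in the wild-type animals and 4.16, 4.17 and 4.38 in the knockout animals, so the genotypes did not overlap. Crym likewise ran from 3.04 to 3.45 in wild type and from 3.52 to 3.86 in knockout without overlap. Cabp7 ran from 3.93 to 4.03 and from 4.08 to 4.36. In that case the separation depends on how tissues are joined into animals: the animal code and the number in the sample titles disagree for 2 wild-type animals, and by the title number the wild-type animals reached 4.11. The remaining 4 genes overlapped. By the animal code 3 of 7 genes did not overlap, where 13.8% of all genes did not, and nothing is read from this count since the genes were selected on the excess.

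**Figure D3:**
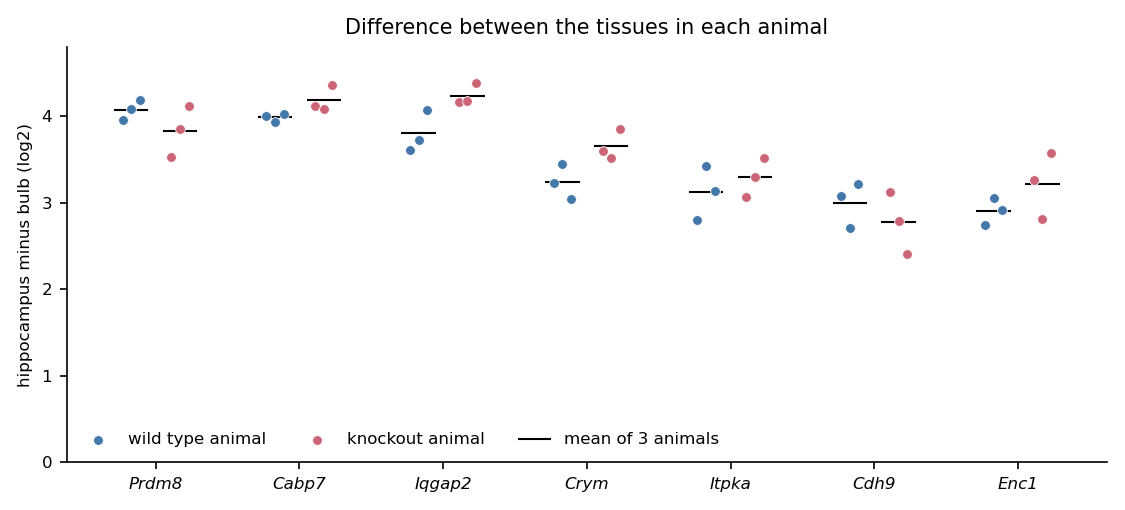
Hippocampus minus olfactory bulb (log2, vertical axis) of each selected gene in each of 6 animals, joined by animal code, with wild type in blue, knockout in red and the mean of 3 animals as a black bar. Knockout animals stand above all wild-type animals for Cabp7, Iqgap2 and Crym, and the genotypes mix for the other genes.

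A single animal stood at the edge for several of these genes. Knockout bulb array 6 was the lowest of the 6 bulb arrays for 6 of the 7 genes, all but Cdh9, while it was the lowest for 24.0% of all genes. Knockout hippocampal array 6, from the same animal, was the lowest of its tissue for Prdm8, Cdh9 and Enc1 and the highest for Cabp7, Iqgap2 and Crym, against 21.3% and 29.4% of all genes. The animal also stood at the edge over all probe sets. Its array median was the lowest of the bulb arrays, at 6.93, and the highest of the hippocampal arrays, at 6.89. In knockout bulb the SD of Enc1 was 0.44 and that of Prdm8 0.42, each above that of 99.9% of genes there, where the median gene had 0.0793. Cdh9 in knockout hippocampus, with an SD of 0.31, lay above 98.7% of genes.

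Markers of hippocampal neurons were read in the same arrays. The 12 markers of dentate granule neurons, of which 9 were higher and 3 lower in hippocampus than in bulb, averaged 9.03, 8.84 and 8.88 in wild-type hippocampus and 8.90, 8.86 and 8.62 in knockout, where the lowest value was again that of animal 6. In bulb they averaged 7.48 to 7.64 in wild type and 7.41 to 7.55 in knockout, with array 6 lowest. None of these 12 was called between the genotypes. For knockout minus wild type, 1 of 12 had a value above zero in hippocampus, with a median of -0.14. In bulb 4 of 12 did, with a median of -0.04. The medians over all genes were 0.03 and -0.02. The 13 markers of forebrain excitatory neurons averaged 8.68 to 8.83 in wild-type bulb and 8.70 to 8.79 in knockout bulb, and 9.88 to 9.93 and 9.89 to 9.94 in hippocampus, without setting array 6 apart. The 12 markers of CA pyramidal neurons averaged 8.87 to 8.99 in wild-type hippocampus. In knockout hippocampus array 4 was lowest at 8.75, array 6 lay within the wild-type range at 8.89, and array 5 was the highest of all. In bulb they ran from 7.75 to 7.83 in wild type and from 7.66, in array 6, to 7.79 in knockout. Of these, 1 was called between the genotypes, Iyd, lower in knockout hippocampus by -0.99 (SE 0.12, adjusted p = 0.000797).

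Of 8 measured myelin markers, 0 were called between the genotypes in either tissue by limma. All 8 had values above zero for knockout minus wild type in hippocampus, with a median of 0.27, and 1 of 8 in bulb, with a median of -0.10. Their average was 9.35, 9.12 and 9.27 in wild-type hippocampus and 9.25, 9.56 and 9.66 in knockout, overlapping, with array 6 highest. In bulb it ran from 9.08 to 9.16 in wild type and was 9.04, 9.08 and 8.95 in knockout, with array 6 lowest. The part of cell composition in the levels of the selected genes was not tested.

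Each selected gene has relatives and partners that did not enter its selection, and these were tested between the tissues. Their lists were drawn up with earlier results of these data known. Of all genes, 17.5% were called higher and 23.4% lower in hippocampus in wild type, and 19.2% and 19.9% in knockout. That split moved with the scale: 3480 higher and 4668 lower in wild type became 4911 and 2888 with arrays centred on their medians and 4131 and 3758 after quantile normalization, and in knockout 3838 and 3966 became 5330 and 3151, and 5095 and 3523. Centring works through the gap between the array medians, which was -0.11 (hippocampus minus bulb) in wild type and -0.07 in knockout, so small differences below are to be read against it. The median difference over all genes was -0.07 in wild type and 0.01 in knockout. The relatives named below by value keep their direction under either scaling in both genotypes, except where said.

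The relatives of Prdm8 did not share its pattern. Of 12 measured PRDM genes, 0 were higher in hippocampus in wild type and 3 were lower, with a median difference of -0.11, and in knockout 0 were higher and 4 lower. Prdm1, a repressor known from plasma cell differentiation, differed by -1.52 (SE 0.09, adjusted p = 1.55e-09) in wild type and -1.71 in knockout. Prdm10 differed by -0.42 and Prdm2 by -0.22 in wild type, and Prdm16, which gave 0.13, was not called. With centring, the call of Prdm2 was lost and Prdm16 was called higher in wild type. Some PRDM genes lay below every array median, where RMA compresses differences and the lack of a call says little. Prdm9 and Prdm14, not called, averaged 5.46 and 5.64 in wild-type hippocampus and 5.56 and 5.72 in wild-type bulb. Prdm1 averaged 5.60 in wild-type hippocampus. Cdh11, a cadherin gene known as a target that Prdm8 represses, was higher in hippocampus by 1.25 (SE 0.08, adjusted p = 3.96e-09) in wild type and 1.22 in knockout.

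The calcium sensors related to Cabp7 moved in both directions. Of 22 measured, 12 were higher and 5 lower in hippocampus in wild type and 13 and 4 in knockout, with medians of 0.38 and 0.49. Higher were Calb1, the calcium buffer calbindin, at 2.72 (SE 0.14), Hpca, the sensor hippocalcin, at 2.59 (SE 0.13), Caln1, the closest relative of Cabp7, at 2.14 (SE 0.16), and Hpcal1 at 2.10 (SE 0.12). Lower were Calb2, calretinin, which marks periglomerular cells of the bulb, at -2.38 (SE 0.14), and Kcnip1, a potassium channel subunit, at -2.13 (SE 0.07). Of the 4 other CaBP genes, named after their values were seen, Cabp1 was called, at 0.53 in wild type. Cabp2, Cabp4 and Cabp5 gave -0.13, 0.28 and -0.13 in wild type and were not called, and the signs of Cabp2 and Cabp5 differ between genotypes or scalings. Cabp4 was called higher in wild type with centring or quantile normalization. Group means were 6.07 to 6.43 for Cabp4 and 5.50 to 5.62 for Cabp5, below every array median.

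The 17 measured genes of inositol phosphate metabolism and calcium release gave 2 higher and 4 lower in wild type and 3 and 4 in knockout, with medians of -0.01 and -0.04. Among other inositol phosphate kinases, Itpkb at 0.14 and Itpkc at 0.07 in wild type were not called, though Itpkb was with centring (adjusted p = 0.0471). Itpk1 was called higher by limma, at 0.25 in wild type (adjusted p = 0.0142) and 0.25 in knockout (adjusted p = 0.0152). Ipmk, at 0.14 in wild type, was not called there but was in knockout, at 0.24 (adjusted p = 0.0122). Plcb4, a phospholipase C that generates inositol trisphosphate, was lower in hippocampus at -2.41 (SE 0.14, adjusted p = 1.55e-09), as was the receptor Itpr3 at -0.69 (SE 0.09) and the phosphatase Inpp5a at -0.67 (SE 0.07). Ippk, a kinase of a later step, was higher at 0.42 (SE 0.10). The count of higher genes depended on scale here, with 7 higher and 4 lower in wild type after centring and 4 and 4 after quantile normalization.

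Among the other IQGAP genes, Iqgap1 was lower in hippocampus at -0.52 (SE 0.08, adjusted p = 7.92e-05) in wild type and -0.52 in knockout. Iqgap3 gave -0.21 in wild type, a call (adjusted p = 0.0415) that was lost with the animal as a block (0.0802), with centring (0.346) and with quantile normalization (0.311). In knockout it gave 0.14 and was not called, and with centring it was called higher. Its group means were 5.66 to 5.99, below every array median. The calmodulin genes Calm3 and Calm2 were higher, at 1.14 and 0.57, Apc, a partner at microtubule ends, was lower at -1.29, and Rac1 at 0.16 was called with centring but not with quantile normalization. In all, 2 of 9 were higher and 3 lower in wild type and 2 and 2 in knockout, and with centring 4 and 2 in each.

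The BTB-Kelch relatives of Enc1, with their ubiquitin ligase scaffold Cul3, gave 8 higher and 14 lower of 34 in wild type and 8 and 13 in knockout, with medians of -0.09 and -0.01. With centring the wild-type split was 11 and 11. Klhl2, an actin-binding relative, was higher at 1.63 (SE 0.09) and Kbtbd11 at 0.99 (SE 0.10), while Klhl1 was lower at -1.80 (SE 0.10) and Klhl14 at -1.17 (SE 0.11). Cul3 gave -0.11 and was not called; its sign turned with centring, and it was called lower after quantile normalization.

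Genes of thyroid hormone handling, the setting of Crym, gave 4 higher and 4 lower of 12 in wild type, and 6 and 2 in knockout, and 6 and 2 in wild type with centring. The receptor Thrb was higher by 0.65 (SE 0.10) in wild type and 0.96 in knockout, and the receptor Thra by 0.38 and 0.28. Of the retinoid X receptors, their partners on DNA, Rxra was higher at 0.43 (SE 0.08) and Rxrg lower at -1.04 (SE 0.07). Hr, a corepressor, was lower at -0.65 (SE 0.09). Slco1c1, a thyroxine transporter, was higher at 0.31, and the deiodinase Dio2 at -0.19 was not called. Ttr and Dio3 were called higher in knockout only, at 1.71 (SE 0.51) and 0.83 (SE 0.17), against 1.09 and 0.38 in wild type. Ttr, also among the choroid plexus markers, had an SD of 1.45 in wild-type hippocampus and 0.59 in knockout hippocampus. Group means of Dio3 were 5.06 to 5.88, below every array median.

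The type II cadherins, the family of Cdh9, were for the most part lower in hippocampus: 8 of 11 lower and 2 higher in both genotypes, with medians of -0.42 and -0.45. Centring left 5 lower and 2 higher in wild type, and 7 and 3 in knockout. Cdh8 at 1.75 (SE 0.07, adjusted p = 2.77e-11) and Cdh11 were the genes on the higher side. Lower were Cdh6 at -2.11 (SE 0.09), Cdh19 at -1.71 (SE 0.18), Cdh20 at -1.57 (SE 0.08), Cdh22 at -1.54 (SE 0.09) and Cdh18 at -0.98 (SE 0.10), and Cdh24 at 0.06 was not called.

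**Figure D4:**
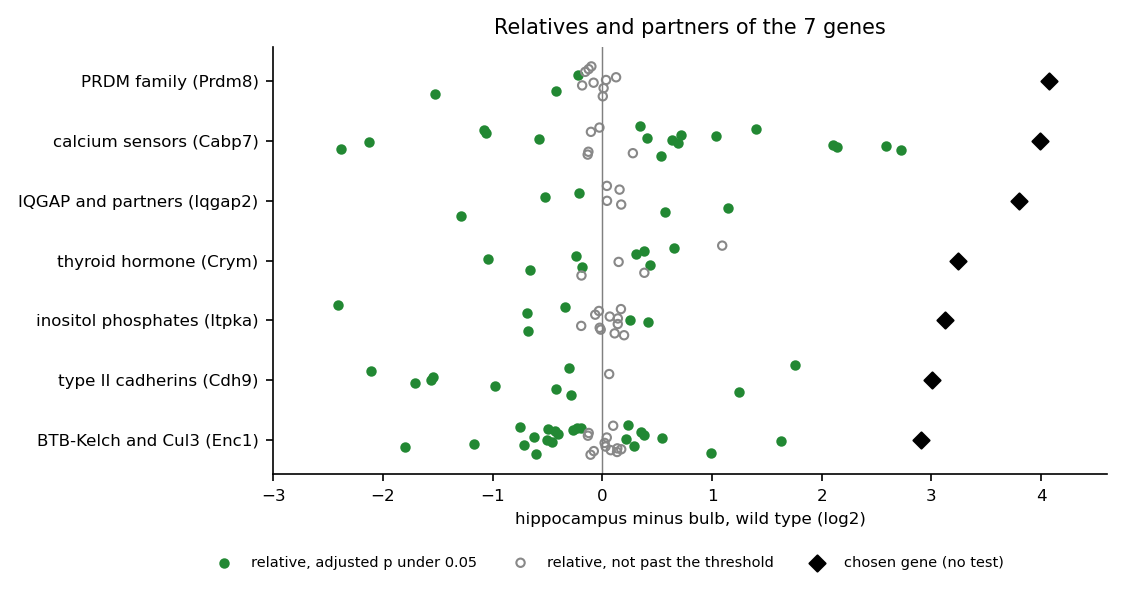
Hippocampus minus olfactory bulb in wild type (log2, horizontal axis) of the relatives and partners of each selected gene, by list, with genes past an adjusted p of 0.05 filled, the others open, and the selected gene, which has no test, as a black diamond. The diamonds lie between 2.90 and 4.08 by selection; the PRDM genes lie near or below zero and 8 of 11 type II cadherins are called lower.

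Between the genotypes these relatives were not called. Of the 117 genes in the lists of relatives, limma called 0 in hippocampus, 0 in bulb and 0 for the difference of the effects, where 0.0150% of all genes were called. At an unadjusted p under 0.05 there were 9, 16 and 11, or 7.69%, 13.7% and 9.40%, against 8.91%, 11.3% and 10.7% of all genes. Their median knockout difference was 0.03 in hippocampus and 0.01 in bulb.

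On the chromosome, Cdh9 is surrounded by cadherin genes that ran the other way. Among the 5 measured genes on each side of it on chromosome 15, Cdh6, Cdh10, Cdh12 and Cdh18 were all lower in hippocampus in both genotypes, Cdh10 by -0.29 and Cdh12 by -0.42 in wild type. With arrays centred, the wild-type calls of Cdh10 (adjusted p = 0.157) and Cdh12 (adjusted p = 0.117) were lost, while in knockout both were kept. Of all 10 neighbours of Cdh9, 2 were called higher and 5 lower in hippocampus in wild type. Those counts were 3 and 2 for Prdm8, 5 and 0 for Cabp7, and 0 and 1 for Iqgap2. They were 1 and 0 for Crym, 4 and 3 for Itpka, and 1 and 1 for Enc1, against 17.5% and 23.4% of all genes. Of the 10 nearest genes of each selected gene, 0 were called between the genotypes in either tissue for Prdm8, Cabp7, Crym, Cdh9 and Enc1. Chp1, a calcineurin-related calcium binding protein gene 5 measured genes from Itpka, was lower in knockout bulb by -0.45 (SE 0.08, adjusted p = 0.0260).

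Iqgap2 and Enc1 lie on chromosome 13, which also carries Rasgrf2, 31 and 43 measured genes away from it. Sv2c, which encodes a synaptic vesicle protein and lies 2 measured genes beyond Iqgap2, was lower in knockout hippocampus by -1.11 (SE 0.09, adjusted p = 2.94e-05). In bulb it differed by -0.18 (adjusted p = 0.505). Of the 44 genes from Rasgrf2 to Enc1, 2 were called in hippocampus, the knocked-out Rasgrf2 itself and Sv2c, and 0 in bulb. Over all genes, 0.256% were called in hippocampus and 0.411% in bulb. For genes on this stretch, an effect of the lost gene and one of sequence linked to it cannot be told apart.

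**Figure D5:**
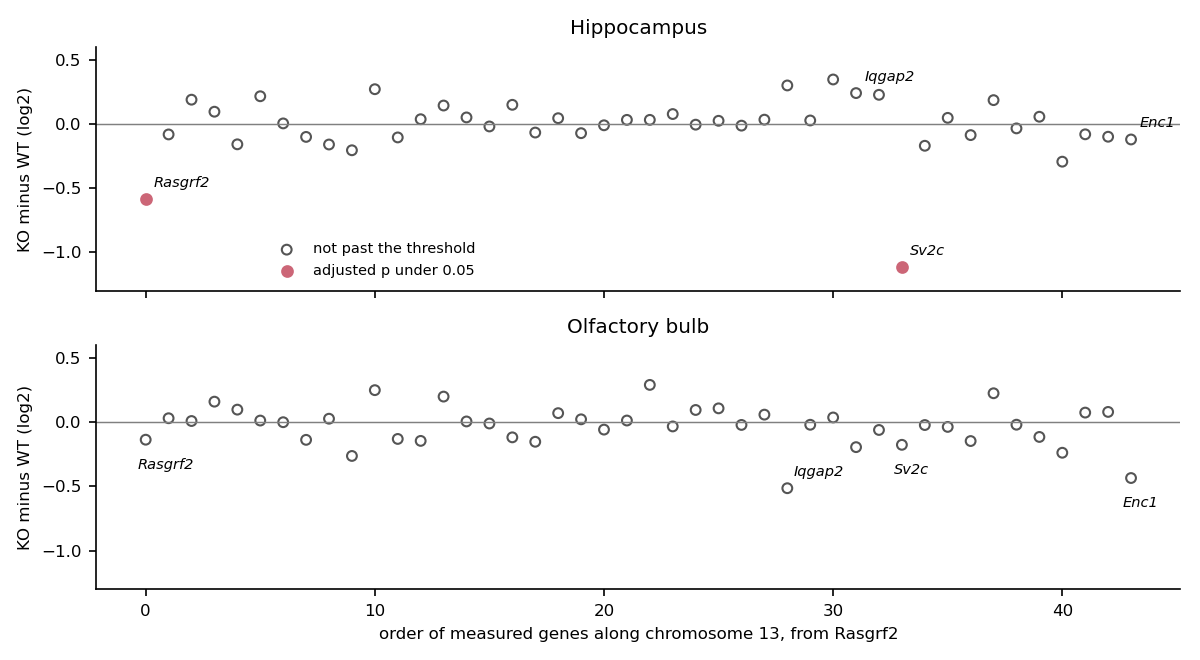
Knockout minus wild type (log2, vertical axis) in hippocampus and olfactory bulb for the 44 measured genes from Rasgrf2 to Enc1, in their order along chromosome 13 (horizontal axis, steps from Rasgrf2). Rasgrf2 and Sv2c are filled in hippocampus, at -0.58 and -1.11, as genes past an adjusted p of 0.05; Iqgap2 and Enc1 are open in both tissues.

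Across the 12 arrays, each centred on the gene's own mean, the profiles of the selected genes were compared by root mean square distance on the log2 scale. The closest pair was Cabp7 and Iqgap2 at 0.129, and the farthest Cabp7 and Cdh9 at 0.641. Outside the selection, Neurod6, a transcription factor of forebrain excitatory neurons, was the gene nearest to Prdm8 (0.207), to Cabp7 (0.214) and to Iqgap2 (0.232). Prox1, a transcription factor that marks dentate granule neurons, came next for each of these (0.381, 0.433 and 0.405) and was the nearest to the mean profile of all 7 (0.167). After these came Npy2r, a neuropeptide Y receptor gene, for Prdm8 (0.449) and Cabp7 (0.475), and Grp, which encodes a neuropeptide, for Iqgap2 (0.457). The distances describe 12 arrays that share their tissue contrast, and they rank genes by that contrast above all.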

How the data were processed

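Per the labels' protocols, each sample's total RNA was biotinylated and read on its own 1-colour array. The deposited values are log2 intensities by probe set, which the authors made with RMA and oligo, per the submitters' processing notes. The sources used here give no version, no genome build and no word on joint normalization of the tissues. RMA corrects background, normalizes between arrays and summarises probes, and it compresses differences near background. Probe sets numbered 35556, of which 21789 carried 1 gene symbol in the platform annotation, 1621 several and 12146 were not listed there. Of 19938 genes, 999 had several probe sets and took the one with the highest mean; each selected gene had 1. No filter on low signal was applied. The number of arrays limits the precision.

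Computed here: limma 3.58.1 in R 4.3.3 (lmFit, eBayes) fitted 1 model of 4 group means over all 12 arrays, with Benjamini-Hochberg adjustment over 19938 genes at 0.05; "called" means past that threshold. Differences are between mean log2 values, and standard errors are limma's. Each gene's error is pooled over the 4 groups, so scatter in 1 tissue also enters the error given for the other. P-values measure the spread between the arrays of a group, which come from separate animals. In comparisons between the tissues, the arrays of an animal were treated as independent. The pipeline was tested on simulated data. Figures used matplotlib 3.10.9 and values were read with data.table (version 1.17.8). Tissues were joined by animal code. Deviations from the group means correlated within an animal from -0.26 to 0.12 by code, and from -0.21 to 0.25 by title number, so the main model has no block, although each animal gave both tissues; fits with the block are given with the other settings.

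The selected genes, the lists of relatives (117 genes) and the cell type markers were chosen with earlier results of these data known. Of 240 list entries, 227 were measured; the rest are not analysed here. The text names the selected genes and up to 8 genes a list. It also names neighbours called between the genotypes, the cadherins near Cdh9, and the 3 profiles nearest to Prdm8, Cabp7, Iqgap2 and the mean. Other neighbours called between the tissues are given by count in wild type. Within a list the largest called differences come first, then up to 3 others. The CaBP genes, Itpk1, Ipmk, Ttr and Dio3 stand outside this rule. Promoter windows come from RefSeq (GRCm38.p6).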

Additional observations from a re-analysis of the deposited data

Results flagged for a closer look

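Sv2c, a neighbour of Iqgap2 on chromosome 13, met the criterion of a knockout effect that differs between the tissues by a test of the difference itself. Its knockout difference was -1.11 in hippocampus and -0.18 in bulb, and the difference of these effects was -0.94 (SE 0.13, limma adjusted p = 0.0318, with all 3 knockout hippocampal arrays below all 3 wild-type arrays). With the animals as a block, 0 genes passed that test.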

How the results depend on the processing

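Of 224 comparisons of a selected gene's knockout difference within a tissue with that of another setting, 216 kept their direction and their side of the threshold. For Crym in hippocampus the knockout difference of 0.03 became -0.0086 with arrays centred on their medians, -0.035 with array weights and -0.014 without both tissues of knockout animal 6, a setting chosen after seeing the data. Leaving out each replicate in turn gave -0.014 to 0.078 for Crym in hippocampus and -0.13 to 0.29 for Prdm8 in bulb. The excess of Cabp7 in wild type moved to 4.10 with centring.

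Over all genes, 51 called in hippocampus became 28 with only the arrays of the comparison, 336 with array weights, 125 with every probe set and 30 to 43 leaving out each replicate. The 82 called in bulb became 36 with only the arrays of the comparison, 136 with trended and robust moderation, 34 without knockout animal 6 and 35 to 105 leaving out each replicate. The 3 called for the difference of the effects became 12 with array weights, 0 with every probe set, 0 without knockout animal 6 and 0 to 4 leaving out each replicate.

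With the replicate block by animal code, the difference of the effects had 0 calls, and 0 by the number in the title; hippocampus against bulb had 7478 calls in wild type by code and 7718 by title, against 8148 without, and 7224 and 7343 in knockout, against 7804. The causes of these moves were not tested. Precision is limited by 3 arrays a group. Levels of Prdm8, Cabp7, Iqgap2 and Itpka lay below the array median in 6 of 6 bulb arrays, where RMA compresses differences.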
